A study of Oryza sativa Japonica Group with 5 samples.

Results

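The segment is a stretch of rice chromosome 12 defined by locus identifiers, from Os12g0291033 to Os12g0466200 in text order. The interval holds 200 loci. The 3 genes for Rubisco small subunits among them (Os12g0291100, Os12g0291400 and Os12g0292400) were left out, and the members are all the others, out of 2045 chromosome 12 loci and 36475 loci in the series. The stretch was picked because transcripts present in only 1 of the genotypes had been seen there in these same libraries. Differences between the genotypes inside it are therefore a description: where a locus is said to be called, the call comes from a fit over all loci of the series, and it is not independent evidence about the segment.

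Rice (Oryza sativa Japonica Group) leaves were profiled by RNA sequencing in 2 groups: the mutant pls4 (2 libraries), whose treatment label reads "knockdown", and wild type, WT (3 libraries), labelled "Non knockdown". The series is about the response of pls4 to sheath blight, a fungal disease. The labels give leaf as the tissue and mesophyll as the cell type. They do not give the altered gene, the leaf age, an inoculation, or whether libraries of a genotype came from separate plants, so the spread between libraries may be technical in part. The level of the altered gene could therefore not be checked.

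Rice loci named in this form by the Rice Annotation Project carry the chromosome number and a running number that increases along the chromosome, so the order of identifiers follows the order of loci. The numbers are labels and not base positions. The files pair no identifier with a gene name, and 0 members were found in the RefSeq gene table used here, so the members are called by identifier and no function, coordinate or sequence is given for them. A transcript level at or near 0 is a statement about RNA in these leaves and not about the locus itself.

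Values are FPKM, in which the fragments of a locus are divided by its length and by the size of the library, so that they are relative within a library. They summed to 736527 and 748458 in the pls4 libraries and to between 750735 and 758853 in the WT libraries. The leaf markers were abundant throughout: the summed FPKM of 6 mesophyll genes (RBCS2 to RBCS5, Lhcb1 and RCA) was 14959 to 19379 in pls4 and 29631 to 40875 in WT. None of the 3 secondary wall markers of vascular tissue (CESA4, CESA7 and CESA9) was at 0 in any library, and their summed FPKM was 9.20 to 18.97 in pls4 and 1.77 to 3.07 in WT. The part of this difference in the results that follow was not tested. In leaf RNA, fewer cells of a type and less RNA per cell cannot be told apart.

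Most of the segment was quiet in these leaves. Of its members, 50 (25.4%) were listed at 0 in all 5 libraries, against 356 of 1845 loci (19.3%) in the rest of chromosome 12. A further 51 were above 0 somewhere but did not reach an FPKM of 1 in at least 2 libraries. The highest value among these 51 was 2.24. The remaining 96 members passed that filter and entered the fit of pls4 against WT. They were 48.7% of the members, against 51.5% in the rest of the chromosome and 53.8% of all loci. Between 77 and 78 members stood at an FPKM of 1 or more in a pls4 library and between 84 and 89 in a WT library.

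The 10 most abundant members, by mean FPKM over all libraries, include Os12g0299300 and Os12g0458900, which are described further on. Os12g0420400 was by far the most abundant member, at 3211 and 3093 FPKM in pls4 and 4991, 4635 and 5154 FPKM in WT. Os12g0420200, which stands 2 steps before it in the walk, had 517 and 351 FPKM in pls4, against 701, 957 and 912 FPKM in WT. Both were lower in each pls4 library than in any WT library. Their differences, pls4 minus WT on the log2(FPKM + 1) scale, were -0.64 ± 0.12 and -0.99 ± 0.20 (± is the standard error of a difference throughout). Together this pair gave 3728 and 3444 FPKM in pls4 and 5592 to 6066 FPKM in WT. The whole segment summed to 5297 and 4926 FPKM in pls4 and 7475 to 7906 FPKM in WT, or 0.658% to 0.719% and 0.993% to 1.04% of all FPKM. Without the pair, the segment summed to 1569 and 1483 FPKM in pls4 and 1840 to 1883 FPKM in WT. The groups thus stayed apart in the sum, by a smaller margin. That sum still holds the loci for which the segment was picked. Those detected in WT alone, defined below, gave 203 to 231 FPKM of it in WT and 0.07 and 0 FPKM in pls4. The rest of chromosome 12, which includes RBCS2, was apart too, at 37778 and 36201 FPKM in pls4 and 39975 to 46243 FPKM in WT.

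Among the other abundant members, 3 were not called, 2 were called higher and 1 was called lower. Os12g0438400 had 181 and 166 FPKM in pls4 and 218, 187 and 191 FPKM in WT, a difference of -0.19 ± 0.10 that was not called. Os12g0406200 (0.29 ± 0.12) and Os12g0409000 (0.19 ± 0.08) were not called either. Os12g0443700 stood at 73.1 and 81.9 FPKM in pls4 and at 59.9, 57.5 and 54.6 FPKM in WT, and Os12g0428600 at 59.7 and 64.6 FPKM in pls4 and at 49.1, 44.6 and 43.9 FPKM in WT. These last differences, both 0.43 ± 0.09, were called higher, and lost the call only in a fit with the replicate number as a block. Os12g0292301 (238 and 171 FPKM in pls4, against 249, 318 and 309 FPKM in WT) was called lower at -0.52 ± 0.17. Without WT replicate 2 or 3, or without pls4 replicate 2, that call was lost, at -0.46, -0.48 and -0.28. It was also lost with no filter and with the replicate number as a block.

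**Figure D1:**
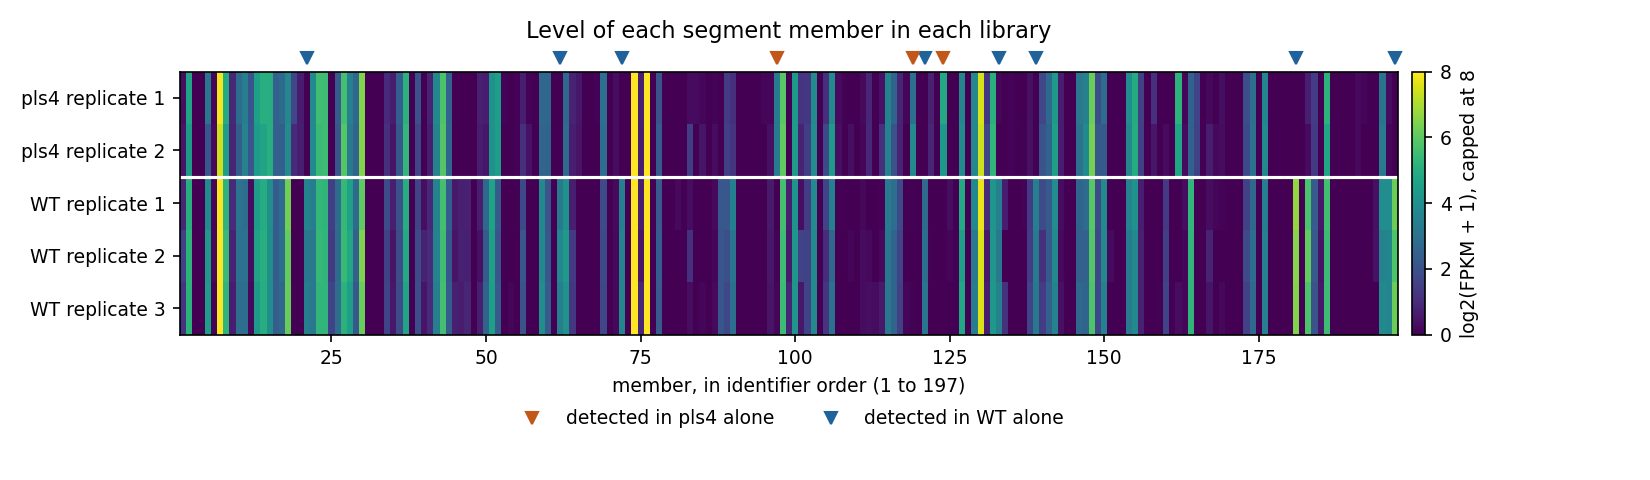
Level of all members in identifier order (x axis) in each library (rows, pls4 above WT), as log2(FPKM + 1) with the colour capped at 8. Triangles mark the 11 members detected in 1 genotype alone, and they are scattered among members with similar colours in all 5 libraries.

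A member was counted as detected in 1 genotype alone when its mean FPKM was at least 5 in that genotype and at most 0.1 in every library of the other. By this rule 11 members stood out, 3 in pls4 alone and 8 in WT alone. They were 16.2% of the 68 members whose mean reached 5 FPKM in pls4 or in WT. The same share was 4.02% of 646 loci in the rest of chromosome 12 and 2.35% of 13621 loci over all chromosomes. By direction, the shares were 4.41% in the segment, 0.464% in the rest of the chromosome and 0.58% over all loci for pls4 alone, and 11.8%, 3.56% and 1.77% for WT alone. These values chose the segment, so nothing is read from the comparison. With presence set at an FPKM of 10 the count was 6, with 2 in pls4 alone and 4 in WT alone.

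The members detected in pls4 alone lay in the middle of the walk. Os12g0435200 was the strongest, at 27.1 and 18.4 FPKM in pls4 against 0, 0 and 0.03 FPKM in WT. Os12g0434400 had 6.81 and 13.3 FPKM in pls4 and 0.03, 0.02 and 0.03 FPKM in WT, and Os12g0428200 had 8.54 and 8.91 FPKM in pls4 and 0, 0.05 and 0.07 FPKM in WT. In all 3 the lower pls4 library stood far above the highest WT library. The pls4 libraries were close to each other for Os12g0428200 and further apart for the other 2.

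Of the members detected in WT alone, Os12g0458900 had the highest level. It was listed at 0 in both pls4 libraries and stood at 104, 93.2 and 88.9 FPKM in WT. Os12g0466200, the last member of the segment, was listed at 0 in both pls4 libraries and stood at 72.4, 54.8 and 72.1 FPKM in WT. These 2 lie within the last 17 members and are the only ones of the 8 with a WT mean above 11 FPKM.

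The other 6 members detected in WT alone had levels close to each other, between 5.77 and 12.2 FPKM in every WT library. Of these, 5 were listed at 0 in both pls4 libraries, against WT values of 8.17 to 11.2 FPKM for Os12g0299700, 8.47 to 12.2 FPKM for Os12g0416900, 9.96 to 11.6 FPKM for Os12g0420000, 5.77 to 7.46 FPKM for Os12g0434801 and 8.44 to 9.91 FPKM for Os12g0441700. Os12g0439201 was at 0.07 and 0 FPKM in pls4, against 9.93, 8.40 and 10.4 FPKM in WT. Summed over the 8 loci, the signal was 0.07 and 0 FPKM in pls4 and 203 to 231 FPKM in WT. Summed over the 3 loci detected in pls4 alone, it was 42.5 and 40.6 FPKM in pls4 and 0.03 to 0.13 FPKM in WT.

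**Figure D2:**
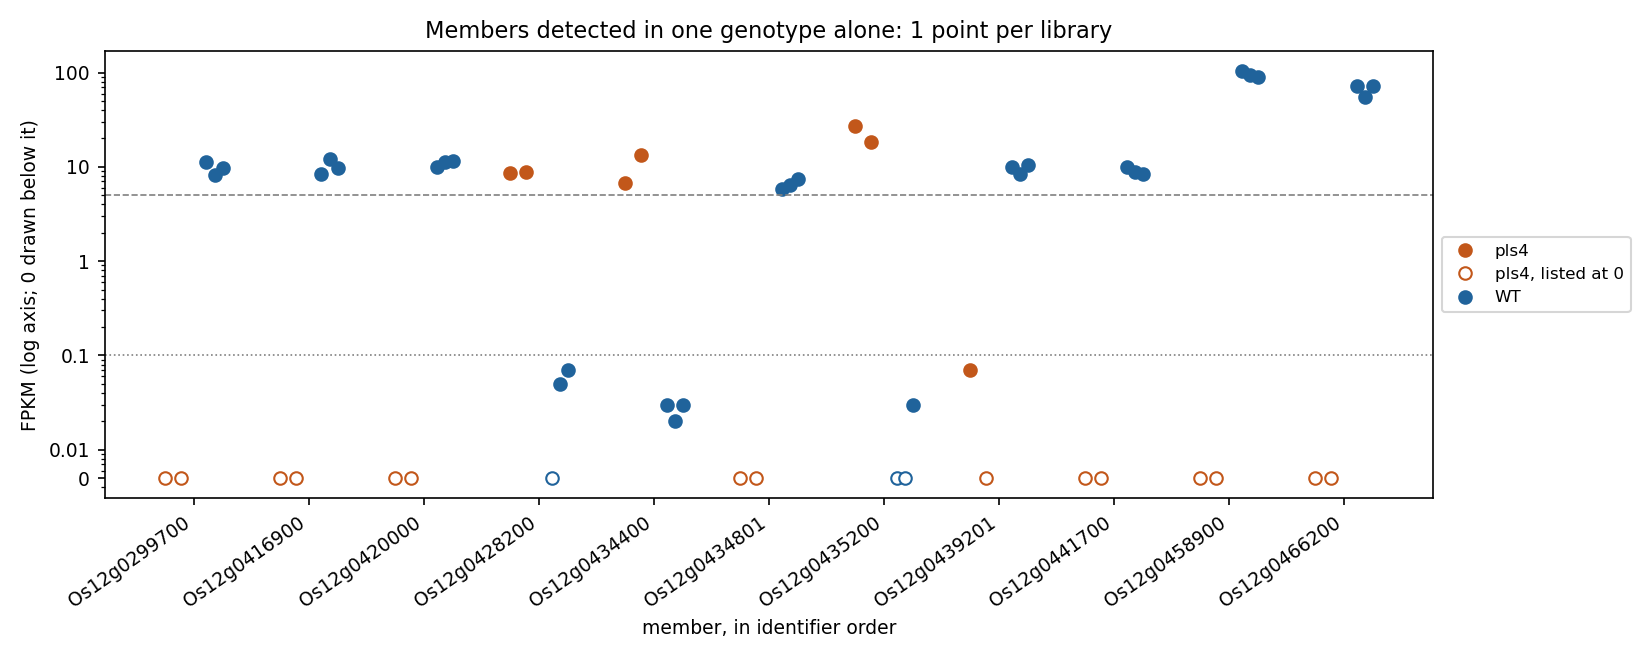
FPKM of the 11 members detected in 1 genotype alone, on a log axis with 0 drawn below it; each point is 1 library, pls4 left of WT, and open points are libraries listed at 0. The dashed line is the presence threshold of 5 and the dotted line the absence threshold of 0.1. Os12g0458900 and Os12g0466200 stand highest, at 0 in pls4 and 54.8 to 104 FPKM in WT.

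Among members with a mean of 5 FPKM or more in 1 genotype, 3 others had means at least 10-fold apart but a value above 0.1 in the lower genotype. Os12g0448900 had 35.2 and 24.9 FPKM in pls4 and 0.02, 0.02 and 0.19 FPKM in WT, so WT replicate 3 alone kept it off the list. Os12g0459300 had 0.58 and 0.17 FPKM in pls4, against 52.3, 66.0 and 53.0 FPKM in WT. Os12g0465800, the last member but 1, had 0.19 and 0.09 FPKM in pls4, against 14.1, 11.8 and 11.5 FPKM in WT. The ratios of the group means were 392 (pls4 over WT) for Os12g0448900, and 152 and 89.1 (WT over pls4) for the other 2. With absence set at 0.5 the count went to 13, and without WT replicate 3, or without pls4 replicate 1, it was 12.

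Exact zeros give another count. Counting members at 0 in every library of 1 genotype and above 0 in every library of the other, 6 were above 0 in pls4 and at 0 in WT, and 14 were at 0 in pls4 and above 0 in WT. These are 4.08% and 9.52% of the 147 members above 0 in any library, against 2.42% and 6.45% of 1489 loci in the rest of chromosome 12 and 1.74% and 3.42% over all loci. Of the 14, 7 are loci detected in WT alone, described above, and the other 7, like the 6 at 0 in WT, reached at most 3.53 FPKM, where few reads can lie behind a value. Among these low members Os12g0451300 had 2.04 and 1.97 FPKM in pls4 and 0 in WT. Os12g0425500 was at 0 in pls4 and at 3.53, 3.30 and 3.43 FPKM in WT, and Os12g0405300 at 0 in pls4 and at 1.80, 1.58 and 2.08 FPKM in WT. Os12g0409800 and Os12g0409900, neighbours in the walk, were at 0 in both pls4 libraries and between 0.53 and 0.82 FPKM in WT, too low for the fit.

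No such pattern appeared between libraries of the same genotype. Setting libraries side by side in pairs, 0 members stood at 5 FPKM or more in 1 and at most 0.1 in the other, in the pls4 pair and in each of the 3 WT pairs. Between a pls4 and a WT library the number was 11 to 13 in the 6 pairs. The segment was picked for differences of this kind between genotypes, so that contrast is a description only. This count of pairs was not made outside the segment. Over the 96 tested members the median absolute difference between libraries, on the log2(FPKM + 1) scale, was 0.14 within pls4 and 0.12 to 0.16 within WT, against 0.56 to 0.79 between genotypes. With the 11 members left out it was 0.45 to 0.66 between genotypes. In the rest of chromosome 12 the between-genotype values were 0.40 to 0.45, with 0.12 within pls4 and 0.11 to 0.16 within WT. The spread between replicates inside the segment was thus close to that outside it.

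Of the 96 tested members, 68 were called, which means an adjusted p under 0.05 in a limma fit over all 19637 tested loci with Benjamini-Hochberg adjustment. The call rate was 70.8% in the segment, 57.8% of 950 loci in the rest of chromosome 12, and 52.0% over all loci. In pls4, 29 members were called higher (30.2%, against 29.9% in the rest of the chromosome and 33.4% over all loci) and 39 lower (40.6%, against 27.9% and 18.5%). The call with a change of at least 1 on the log2 scale was made at 36 members (37.5%). The share was 20.7% in the rest of the chromosome and 14.3% over all loci. Of the 36, 12 were higher and 24 lower. By direction there were 64 higher and 133 lower in the rest of the chromosome, and 1397 and 1415 over all loci. Values of the genotypes did not overlap at 81 tested members (84.4%, against 73.5% in the rest of the chromosome and 69.9% over all loci). Since the segment was chosen on this contrast, these shares are a description only. The median difference of the 96 members was 0.02, and that of all tested loci 0.15.

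The number called higher depended on the scaling and on the libraries. Median ratio scaling, which moved the median of all loci to -0.0019, left 20 members called higher and 41 lower. Leaving out 1 WT library gave 24 to 30 higher and 36 to 39 lower. Fewer were called higher when 1 pls4 library was left out, and 87 members were tested in each case. The filter, applied again there, dropped members at 1 FPKM or more in the pls4 libraries alone, such as Os12g0435200. How much of the fall came from this was not tested. Of the 68 called members, 51 (17 higher and 34 lower) kept their call and direction under each alternative in which they were tested. The 17 include members that were not tested when a pls4 library was left out. Os12g0435200, for example, was tested in 10 alternatives, against 12 for Os12g0458900.

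**Figure D3:**
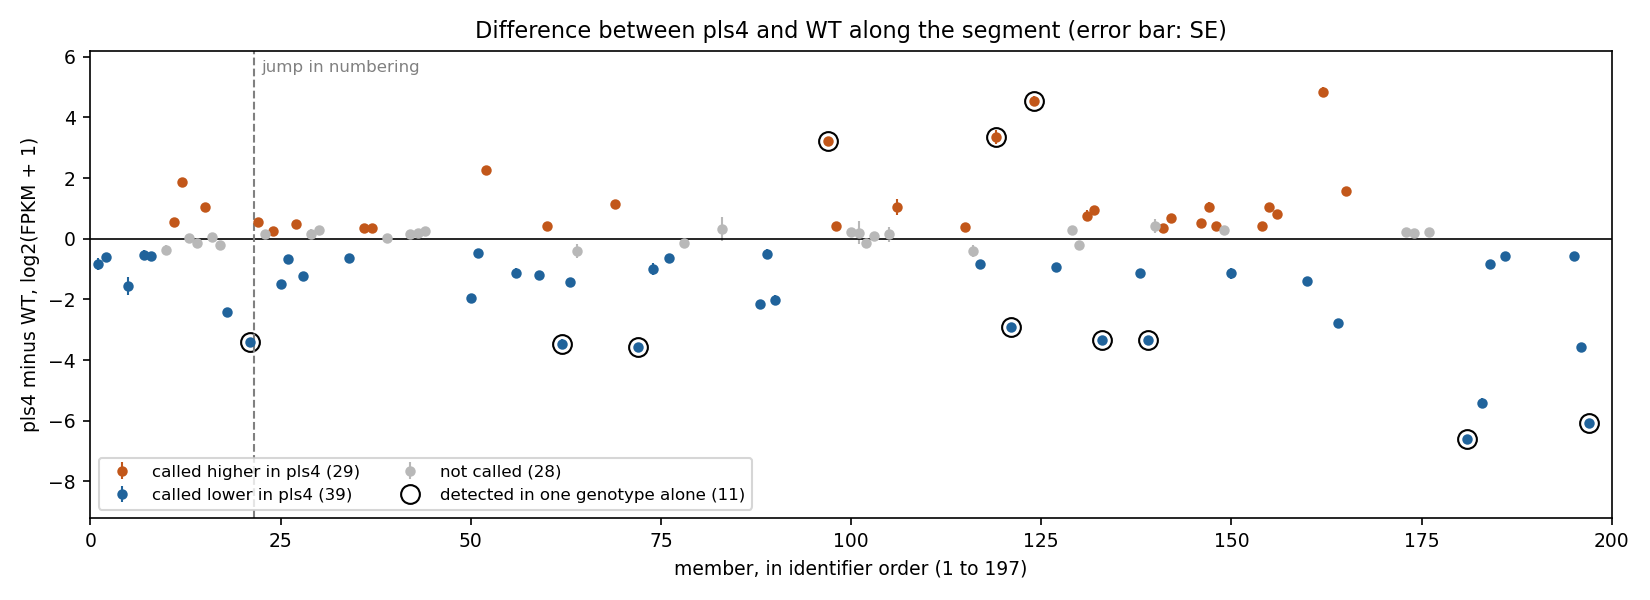
Difference between pls4 and WT on the log2(FPKM + 1) scale for the 96 tested members, in identifier order; error bars are standard errors, and black rings mark the 11 members detected in 1 genotype alone. The 29 points called higher and the 39 called lower are spread over the walk, with stretches of 1 direction, and the last 7 tested members all lie below 0. The dashed line marks the jump in numbering between Os12g0299700 and Os12g0403800.

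Some members with large differences kept the transcript in both genotypes. Of the 36 members called with a change of at least 1, 14 had means of 1 FPKM or more in both genotypes. They were 6 higher and 8 lower in pls4, out of 67 members with such means. This count was not made outside the segment, so nothing is read from it. Os12g0411700 led upward, at 21.0 and 21.4 FPKM in pls4 and 3.79, 3.35 and 3.81 FPKM in WT (2.26 ± 0.10). Os12g0450500 led downward, at 4.57 and 4.56 FPKM in pls4, against 38.4, 37.4 and 36.9 FPKM in WT (-2.79 ± 0.08). In both, the genotypes were far apart and the libraries of each genotype close together. Os12g0299300 had 11.9 and 13.5 FPKM in pls4, against 78.1, 67.6 and 70.0 FPKM in WT (-2.41 ± 0.10), and Os12g0425800 had 1.10 and 1.37 FPKM in pls4, against 9.86, 7.44 and 6.78 FPKM in WT (-2.002 ± 0.16).

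Several other members reached higher levels in pls4. Os12g0298600 had 30.9 and 31.4 FPKM in pls4 and 14.3, 14.9 and 14.0 FPKM in WT (1.06 ± 0.08). Os12g0418900 had 6.65 and 6.48 FPKM in pls4 and 2.63, 2.37 and 2.23 FPKM in WT (1.15 ± 0.11), and Os12g0443600 had 10.4 and 13.2 FPKM in pls4 and 6.01, 4.46 and 4.94 FPKM in WT (1.06 ± 0.15). The mean FPKM of these 3 was 2.16 to 2.72 times as high in pls4. The genotypes did not overlap, as at 84.4% of tested members and 69.9% of all tested loci. In the order named, the 3 differences were 0.89, 1.01 and 0.90 with median ratio scaling. With a pseudocount of 0.1 they were 1.11, 1.41 and 1.19. The calls held in both. Os12g0295600 stood at 3.19 and 3.45 FPKM in pls4 and was nearly silent in WT, at 0.17, 0.20 and 0.13 FPKM (1.89 ± 0.12, a value that the added 1 FPKM makes small for so low a gene). The 28 tested members that were not called ranged from -0.40 to 0.42, and 20 of them lay above 0.

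**Figure D4:**
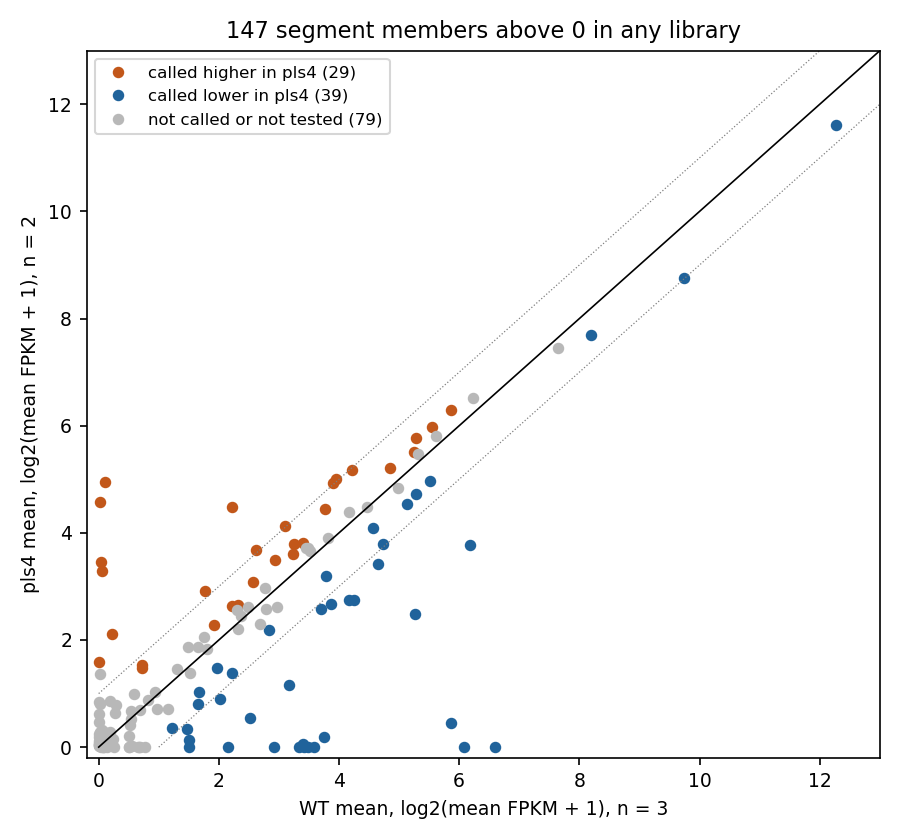
Mean level of the 147 members above 0 in any library, pls4 (y axis, n = 2) against WT (x axis, n = 3), both as log2(mean FPKM + 1); the solid line is equality and the dotted lines a difference of 1. Of the 96 tested members, 40 differed by less than 0.5 either way, while those on the lower edge (8 detected in WT alone, with others at lower levels) and on the left edge are near 0 in 1 genotype.

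Read along the identifiers, the first 20 members (Os12g0291033 to Os12g0299650) held 14 tested loci, of which 3 were called higher, 6 lower and 5 not called, and 0 were detected in 1 genotype alone. Several of the first members lie between the left-out Rubisco genes by number, and all 5 tested ones from Os12g0291033 to Os12g0292900 were called lower. Of these, Os12g0291033 (0.23 and 0.34 FPKM in pls4 and 0.82, 1.89 and 1.31 FPKM in WT, -0.84 ± 0.20) lost its call without pls4 replicate 1, and Os12g0291066 had 24.6 and 19.7 FPKM in pls4, against 31.3, 35.9 and 34.7 FPKM in WT (-0.60 ± 0.11). Os12g0291066 and Os12g0291733 kept their calls in all 12 alternatives, Os12g0292301 in 7 of 12 and Os12g0292900 in 11 of 12. The identifier of the Rubisco gene RBCS4 (Os12g0292400) lies between the last 2. RBCS4 stood at 529 and 377 FPKM in pls4, against 980, 1411 and 1287 FPKM in WT. Whether reads are shared among these loci was not tested.

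The first locus detected in 1 genotype alone, Os12g0299700, is also the last before a jump in the numbering. The step from it to Os12g0403800 is 104100, while the next largest step between neighbouring chromosome 12 identifiers in the files is 3301. Of the members, 21 lie before the jump and 176 after it. Directly before it stand 2 low members with the opposite pattern, Os12g0299600 at 2.24 and 0.93 FPKM in pls4 and 0, 0 and 0.03 FPKM in WT, and Os12g0299650 at 0.51 and 0.58 FPKM in pls4 and 0 in WT, both under the filter. The next member after it, Os12g0403800, was at 12.78 and 12.98 FPKM in pls4 and 9.30, 8.23 and 8.07 FPKM in WT (0.54 ± 0.10).

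In members 21 to 60 (Os12g0299700 to Os12g0416500), 23 loci were tested, with 7 called higher, 9 lower and 7 not called, and Os12g0299700 was the only one detected in 1 genotype alone. The next 20 (Os12g0416800 to Os12g0422800) held 2 such loci, Os12g0416900 and Os12g0420000, and 8 members listed at 0 in every library. Here 1 of 8 tested members was called higher and 5 lower. Os12g0416900 is followed directly by Os12g0417000, which kept a reduced signal at 5.41 and 6.04 FPKM in pls4, against 15.99, 19.17 and 15.98 FPKM in WT (-1.42 ± 0.11). Os12g0420000 lies 2 steps before Os12g0420200, the second most abundant member. A locus with no detected pls4 transcript thus stood close to one of the most abundant.

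Members 81 to 120 (Os12g0422971 to Os12g0434601) brought the first loci detected in pls4 alone, Os12g0428200 and Os12g0434400. Os12g0428200 is followed directly by Os12g0428600, one of the 10 most abundant members, with its small difference between genotypes. Opposite patterns then met between members 119 and 124: Os12g0434400 (pls4 alone, member 119), Os12g0434801 (WT alone, member 121) and Os12g0435200 (pls4 alone, member 124). Between them Os12g0435000 had 0.68 and 0.83 FPKM in pls4 and 0, 0.03 and 0 FPKM in WT, and Os12g0434601 and Os12g0435100 were listed at 0 in all libraries. In members 121 to 140 (Os12g0434801 to Os12g0442700), Os12g0439201 and Os12g0441700 were detected in WT alone as well. With 3 loci detected in WT alone and 1 in pls4 alone, this block had the most of the 10.

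Members 141 to 160 (Os12g0442800 to Os12g0448400) had 8 of 11 tested loci called higher and 2 lower, with 0 detected in 1 genotype alone. Of these 8 calls, Os12g0442800 (0.34 ± 0.12) kept its call in 1 of 11 alternatives and Os12g0446500 (0.41 ± 0.12) in 6 of 12. The next 20 (Os12g0448650 to Os12g0458100) were the quietest, with 10 members listed at 0 in all libraries and 6 tested. Large differences of both signs lay close together there: Os12g0448900, near 0 in WT, is 2 steps from Os12g0450500, which was lower in pls4, and 3 steps from Os12g0451300, at 0 in WT. The last 17 members (Os12g0458900 to Os12g0466200) held 7 tested loci, and all 7 were called lower. Among these were Os12g0458900, Os12g0459300, Os12g0465800 and Os12g0466200, all near or at 0 in pls4. The other 3 kept a signal, Os12g0460100 at 1.64 and 1.58 FPKM in pls4 and 3.95, 3.80 and 3.16 FPKM in WT (-0.83 ± 0.12), Os12g0460800 at 35.4 and 25.3 FPKM in pls4 and 46.3, 43.6 and 44.3 FPKM in WT (-0.56 ± 0.14), and Os12g0465700 at 7.58 and 8.75 FPKM in pls4 and 14.14, 10.98 and 13.03 FPKM in WT (-0.58 ± 0.13).

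The nearest members with means of 1 FPKM or more in both genotypes, taken before and after each of the 11 loci, came to 15 different members. Of these 5 were called higher, 7 lower and 3 not called, and 11 differed by less than 1 on the log2 scale. Over all tested loci 52.0% were called, and 14.3% were called with a change of at least 1. The same shares were 70.8% and 37.5% of the tested members. Both sets include loci near 0 in 1 genotype, which the neighbours by their rule do not. Of the 67 members with means of 1 FPKM or more in both genotypes, 14 were called with a change of at least 1. With 15 neighbours, nothing is read from the comparison. Identifiers that do not end in 00 belonged to 41 members (20.8%, against 17.3% in the rest of chromosome 12 and 19.7% of all loci). Of these 41, 16 were listed at 0 in every library and 12 were tested, and 2 (Os12g0434801 and Os12g0439201) were among the 11. In the rest of chromosome 12, 122 of 320 such loci were at 0 and 73 were tested. There 5 were among the 26 loci detected in 1 genotype alone. Over all loci, 2373 of 7185 were at 0, 1993 were tested, and 88 were among the 320 detected in 1 genotype alone.

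Differences between the genotypes were also seen just outside the segment. Of the 3 loci just before it, Os12g0290200 had 0.22 and 0.11 FPKM in pls4 and 1.82, 3.47 and 2.77 FPKM in WT (-1.64 ± 0.20), Os12g0290600 had 23.6 and 27.3 FPKM in pls4 and 23.6, 23.2 and 20.2 FPKM in WT (0.18 ± 0.11), and Os12g0291000 had 2.76 and 2.44 FPKM in pls4 and 5.78, 5.88 and 5.97 FPKM in WT (-0.94 ± 0.10). The third member inside, Os12g0291200, was listed at 0 in all libraries. Of the 3 loci just after the segment, Os12g0466800 and Os12g0467200 were at 0 in all libraries. Os12g0467300 was at 0 in both pls4 libraries and at 2.1, 2.15 and 2.47 FPKM in WT. Loci lower in pls4 are thus found within 3 loci of both ends, though none of these loci was detected in 1 genotype alone by the rule above.

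Cut into blocks of 200 loci stepping out from the segment, with shorter blocks at the chromosome ends, chromosome 12 held loci detected in 1 genotype alone in 8 of its 10 other blocks. The next highest count was in Os12g0183300 to Os12g0234800, 2 blocks before the segment, with 8 such loci (12.7% of 63 expressed), 1 in pls4 alone and 7 in WT alone. The block between them had 5, all in WT alone, and the block just after the segment had 2, 1 of each kind. No other block of chromosome 12 had more than 1 locus detected in pls4 alone, against 3 in the segment. The share of tested loci called with a change of at least 1 was 37.1% in that earlier block, 28.1% and 27.3% in the blocks directly beside the segment, and 5.26% to 28.2% in the others. The last 2 blocks, toward the highest numbers, held 0 loci detected in 1 genotype alone. The segment was picked with these values known, so its place at the top of this order is not a finding.

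**Figure D5:**
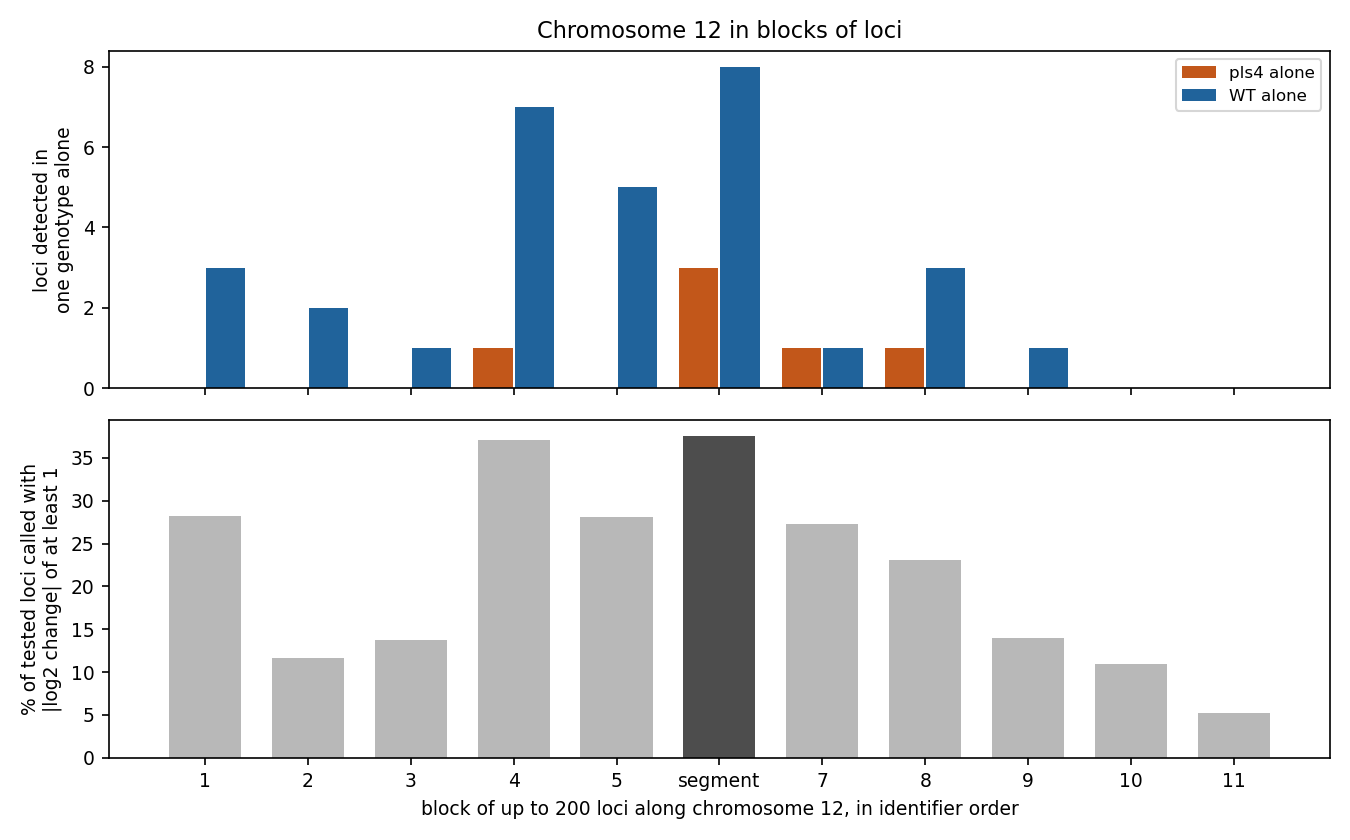
Chromosome 12 in blocks of up to 200 loci in identifier order, with the segment named on the x axis. The upper panel gives the number of loci detected in pls4 alone and in WT alone, and the lower panel the percent of tested loci called with a change of at least 1 on the log2 scale. The segment (11 loci, 37.5%) and the 4th block (8 loci, 37.1%) stand highest in both panels.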

How the data were processed

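The authors deposited 1 table per library of FPKM per locus (unit per the file headers, to 2 decimals). TopHat2 2.1.1 and build IRGSP-1.0 were used, per the submitters' processing notes. No annotation, counting tool or filter was stated, and gene lengths are likewise not given in the sources used here. Read totals are not in the tables. Ratios of low values (0.15 to 0.8 FPKM) to WT replicate 1 had no dominant step (the most common ratio held 5.11% to 6.08% of loci), so depth is unknown and no counting interval is given.

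From the deposited FPKM, limma 3.58.1 in R 4.3.3 was fitted to log2(FPKM + 1) over the 19637 loci that reached 1 FPKM in 2 libraries or more, both genotypes in 1 fit, with a variance trend and Benjamini-Hochberg adjustment. The procedure was checked on simulated data in which few loci changed and both groups had the spread between WT libraries. These data differ from that setting, so the check does not show how many calls here are false. Alternatives changed the pseudocount, filter, scaling, thresholds, replicate block and each library in turn. The members, rules and blocks were chosen with earlier results of these data known. Named loci are the members detected in 1 genotype alone, the 10 highest and 10 lowest differences, the 10 most abundant members and 3 loci inside and outside each end. Other loci were named after their values were seen.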

Additional observations from a re-analysis of the deposited data

How the results depend on the processing

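The segment's number of members called lower stayed within 1.5 times of 39 under every alternative run, while the number called higher was 14 to 30 when 1 library was left out, lowest without pls4 replicate 1 (a lone pls4 library is assumed to vary like the others). The median difference of the members, 0.02, has no secure sign: it was -0.13 with median ratio scaling, -0.11 with quantile normalization, -0.0078 in the fit with the replicate block, and -0.33 to 0.037 when a library was left out. The median over all loci was 0.18 and 0.16 with pseudocounts of 0.1 and 0.5, 0.058 with no filter, 0.18 with the filter at 5 FPKM, -0.0019 with median ratio scaling, 0.046 after quantile normalization, 0.14 with the replicate number as a block, and 0.13 to 0.18 without 1 library. With no filter 147 members were tested, and 13.2% of the rest of chromosome 12 was called with a change of at least 1. With presence at 10 FPKM, 6 members were detected in 1 genotype alone and 4 in WT alone. With presence at 2 FPKM the share in the rest of chromosome 12 was 6.12%. The cause of these shifts was not tested. A changed filter or threshold lets in a different set of loci, and the part of this in the shifts was not tested either.

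Replicate numbers are shared between genotypes in the labels, but nothing says that they pair libraries. Deviations of same-numbered libraries from their genotype means correlated at -0.095 and -0.138 across loci. With 2 pls4 libraries the pls4 deviations mirror each other, so these values cannot decide whether the numbers pair libraries. The replicate block leaves WT replicate 3 without a partner, so its differences equal those of the fit without that library. With the replicate block, 20 members were called higher and 37 lower, and Os12g0420400, Os12g0428600, Os12g0443700 and Os12g0292301 were not called. Os12g0420400 also lost its call after quantile normalization (-0.36). Over 32 tested named members and 367 alternative values, no difference changed sign, 10 calls were lost and 2 gained (Os12g0438400 with median ratio scaling and Os12g0406200 without WT replicate 2). Unknown depth limits what a listed 0 shows, most of all for loci under 1 FPKM.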
